A study of Mus musculus with 8 samples.

Results

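The HMGA2 library from wild-type mouse embryonic fibroblasts (MEF) was described by its autosomal peaks, which were 142818 of the 152834 intervals in its peak list (93.4%). All intervals of the list on the 19 autosomes were taken, whatever their score, and the 10016 intervals on chromosomes X and Y were left out. The cells were Hmga2 wt fibroblasts of strain C57BL/6, isolated at E15.5 (embryonic day) and used at passages 2 to 4, and HMGA2-bound DNA was isolated from sonicated chromatin and sequenced. Peak lists of γ-H2AX, histone H2AX phosphorylated at a DNA damage site and labelled H2AXS139ph (119267 autosomal peaks), and of ATM, a kinase of the DNA damage response (112116 autosomal peaks), made from the same kind of cells, served as references. There was 1 library per antibody, so no value below carries a replicate error, and every comparison between lists compares libraries. The Hmga2 Ko and input libraries of the series were not analysed here. Whether the fibroblasts came from 1 embryo or several is not given in the sources used here.

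HMGA2 is an architectural chromatin protein of embryonic and proliferating mesenchymal cells. Its AT-hooks, short basic segments, contact the minor groove of DNA rich in A and T, and the protein bends DNA and helps other factors assemble rather than activating transcription by itself. Peaks at gene starts, in gene bodies and between genes are therefore described separately, together with the base composition of promoters.

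Promoters touched by HMGA2 peaks of high score are printed here as examples. In the RefSeq promoter table (build GRCm38.p6, the assembly of mm10; 300 bases, 250 before to 50 after each annotated start), 462 of 31365 autosomal promoters were touched by an HMGA2 peak, and percent called was 1.47%. For protein-coding genes it was 259 of 20055 (1.29%). The 5 protein-coding promoters under the highest scores were those of Tnrc6a, a scaffold of microRNA silencing (chr7:123123635-123123934, plus strand, score 47.95), Ocel1 (chr8:71371048-71371347, plus strand, 42.95), Ypel1 (chr16:17069889-17070188, plus strand, 42.09), Anxa4, a calcium-dependent membrane-binding annexin (chr6:86775065-86775364, minus strand, 39.16), and H2ac4, a core histone H2A gene (chr13:23750838-23751137, plus strand, 37.07). They are printed 5′ to 3′ along the gene, and capitals mark runs of 8 or more A or T bases.
Tnrc6a: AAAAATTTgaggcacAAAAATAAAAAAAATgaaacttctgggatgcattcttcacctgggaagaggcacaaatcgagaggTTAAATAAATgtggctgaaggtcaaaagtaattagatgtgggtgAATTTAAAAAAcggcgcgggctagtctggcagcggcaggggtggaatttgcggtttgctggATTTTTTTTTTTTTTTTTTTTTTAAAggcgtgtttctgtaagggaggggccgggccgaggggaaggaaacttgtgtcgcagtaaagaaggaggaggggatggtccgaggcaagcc
Ocel1: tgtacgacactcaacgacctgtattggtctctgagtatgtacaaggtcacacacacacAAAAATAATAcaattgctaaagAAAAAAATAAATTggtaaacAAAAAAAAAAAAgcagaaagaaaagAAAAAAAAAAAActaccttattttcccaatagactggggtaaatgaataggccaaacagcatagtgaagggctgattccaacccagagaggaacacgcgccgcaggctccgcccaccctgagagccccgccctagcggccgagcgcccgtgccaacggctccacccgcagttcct
Ypel1: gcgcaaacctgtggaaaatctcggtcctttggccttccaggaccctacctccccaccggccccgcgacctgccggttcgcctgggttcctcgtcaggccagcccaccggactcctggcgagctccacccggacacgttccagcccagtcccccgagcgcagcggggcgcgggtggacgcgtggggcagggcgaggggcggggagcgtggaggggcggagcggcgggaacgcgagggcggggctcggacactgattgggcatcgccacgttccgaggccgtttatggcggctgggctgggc
Anxa4: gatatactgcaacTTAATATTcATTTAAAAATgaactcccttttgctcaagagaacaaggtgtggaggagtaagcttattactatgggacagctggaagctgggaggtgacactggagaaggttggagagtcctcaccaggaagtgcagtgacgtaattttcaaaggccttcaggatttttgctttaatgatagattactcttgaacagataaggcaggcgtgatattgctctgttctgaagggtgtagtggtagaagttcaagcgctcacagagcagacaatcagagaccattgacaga
H2ac4: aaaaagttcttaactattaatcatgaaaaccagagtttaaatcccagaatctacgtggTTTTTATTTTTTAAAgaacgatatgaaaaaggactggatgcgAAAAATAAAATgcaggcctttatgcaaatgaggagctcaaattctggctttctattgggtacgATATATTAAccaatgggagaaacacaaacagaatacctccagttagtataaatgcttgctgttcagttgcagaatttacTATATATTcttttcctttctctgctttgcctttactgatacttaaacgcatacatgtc
Runs of this kind were present in 4 of the 5 promoters, with 5 in Tnrc6a, 4 in Ocel1, 2 in Anxa4 and 4 in H2ac4, where the A+T shares were 55.3%, 54.0%, 57.0% and 66.7%. The Ypel1 promoter was the exception, with an A+T share of 27.3%, 34 CpG dinucleotides and no run. The peak of H2ac4 lay inside the printed window and the other peaks reached beyond it. Much of the printed sequence thus lies outside the peaks, as does the longest run of Tnrc6a, of 26 bases. The centre of the peak lay at -278 bp (Tnrc6a), -173 bp (Ocel1), -272 bp (Ypel1), -365 bp (Anxa4) or -77 bp (H2ac4) from the start, a negative distance being upstream. No γ-H2AX peak touched any of these windows, and an ATM peak touched that of Ocel1.

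Over all promoters, those touched by HMGA2 were richer in A and T than the rest. The mean A+T share of the 462 promoters was 54.5%, against 46.0% for all promoters, 46.5% for the 1137 touched by γ-H2AX and 49.1% for the 577 touched by ATM. Their median number of CpG dinucleotides was 4, against 7 for all promoters and 12 for γ-H2AX. The share of promoters touched by HMGA2 rose through every class of base composition. It was 0.264% (95% Wilson interval 0.160 to 0.435) below an A+T share of 35%, 0.652% (0.496 to 0.856) from 35% to 45%, 1.56% (1.34 to 1.81) from 45% to 55%, 2.73% (2.34 to 3.18) from 55% to 65% and 5.50% (4.36 to 6.91) at 65% or more. The classes at the ends differed 20.8-fold. Even placement of the peaks over the autosomes would touch 2.73% of promoters, so the poorest class lay at 0.0967 times and the richest at 2.02 times that value.

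γ-H2AX did not follow this order, and ATM followed it except in the richest class. γ-H2AX touched 2.14% of promoters in the class lowest in A and T, 4.92% from 35% to 45% and 1.86% in the richest class. ATM rose from 0.791% in the lowest class through 1.81% and 1.98% to 2.70% between 55% and 65%, and fell to 1.54% in the richest. Among touched promoters, an A+T share of 55% or more was found in 229 of the 462 HMGA2 promoters (49.6%), 240 of the 1137 γ-H2AX promoters (21.1%) and 178 of the 577 ATM promoters (30.8%), against 22.7% of all promoters. The odds were 3.67 times higher for HMGA2 than for γ-H2AX (95% interval 2.91 to 4.63, Fisher's exact test, two-sided, p adjusted over 2 tests = 4.44e-28). Against ATM they were 2.20 times higher (1.71 to 2.84, adjusted exact p = 1.08e-09). The tests count promoters as independent, which alternative starts of one gene need not be. Base composition of the sequenced fragments is not known for these libraries, and its part in the order was not tested.

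**Figure D1:**
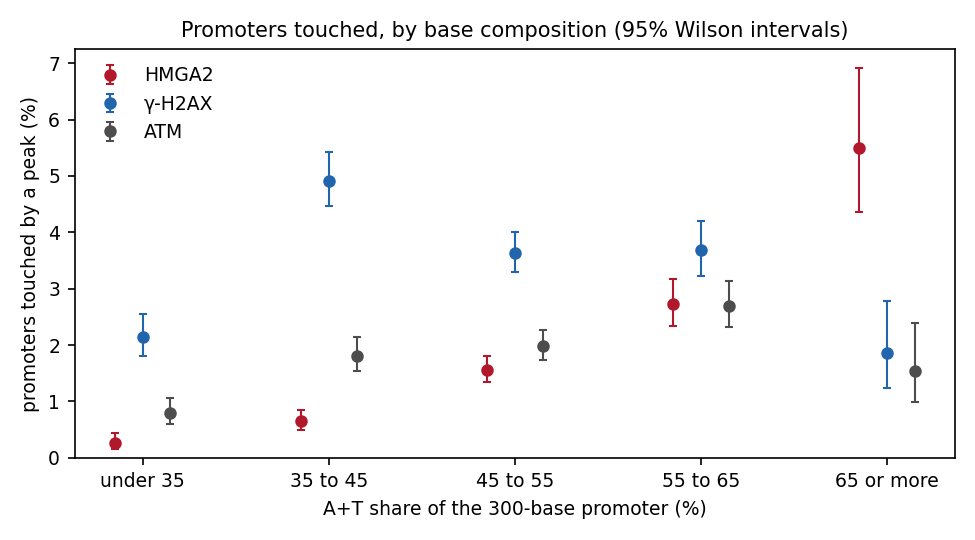
Share of 300-base promoters touched by a peak (vertical axis, percent) in 5 classes of A+T share (horizontal axis), with points for each antibody and bars for 95% Wilson intervals that cover counting error only. HMGA2 goes from 0.264% in the lowest class to 5.50% in the highest, while γ-H2AX is highest in the class from 35% to 45%.

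Sequence features pointed the same way as the A+T share with which they are bound up. A run of 8 or more A or T bases was found in 67.3% of HMGA2 promoters (62.9 to 71.4), 42.8% of γ-H2AX promoters, 49.6% of ATM promoters and 41.5% of all promoters. The motif AATATT, which is its own reverse complement and was searched as these letters, was found in 14.3% of HMGA2 promoters (11.4 to 17.8), against 7.92% for γ-H2AX, 8.15% for ATM and 6.72% of all promoters. Some matches of AATATT lie inside such runs.

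Autosomal HMGA2 peaks were narrow and mostly of low score. Widths had a median of 169 bp, with 129 bp and 246 bp at the 5th and 95th percentiles, and 120 peaks were wider than 500 bp. The score, which is the authors' value per peak (-10 times the log10 of the p of the peak caller, 20 at the threshold), had a median of 23.8 and a 95th percentile of 35.2. It reached 30 in 16474 peaks, 50 in 759 and 100 in 13.

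Transcription starts were sparsely covered. Around 20055 annotated starts of protein-coding genes, HMGA2 peak density was lowest, at 0.295 times the autosomal mean, in the first 250 bp of the gene (88 peaks) and was 0.423 times the mean in the 250 bp before it (126 peaks). The deepest stretch was narrow. Density was 0.983 at 250 to 500 bp upstream and 0.9497 at 750 to 1000 bp downstream, and the highest value, 1.13, lay at 1500 to 1750 bp inside the gene. Farther out it was below the mean again. The HMGA2 mean was 0.869 over the 5 kb upstream, 0.900 over the 5 kb downstream and 0.835 in the outermost 1 kb of both sides together. ATM had its lowest value, 0.654, in the first 250 bp as well. γ-H2AX was 1.22 there, above the autosomal mean, and reached 2.05 at 250 to 500 bp upstream. Within 500 bp of a start HMGA2 had a mean of 0.537, γ-H2AX one of 1.64 and ATM one of 0.864.

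**Figure D2:**
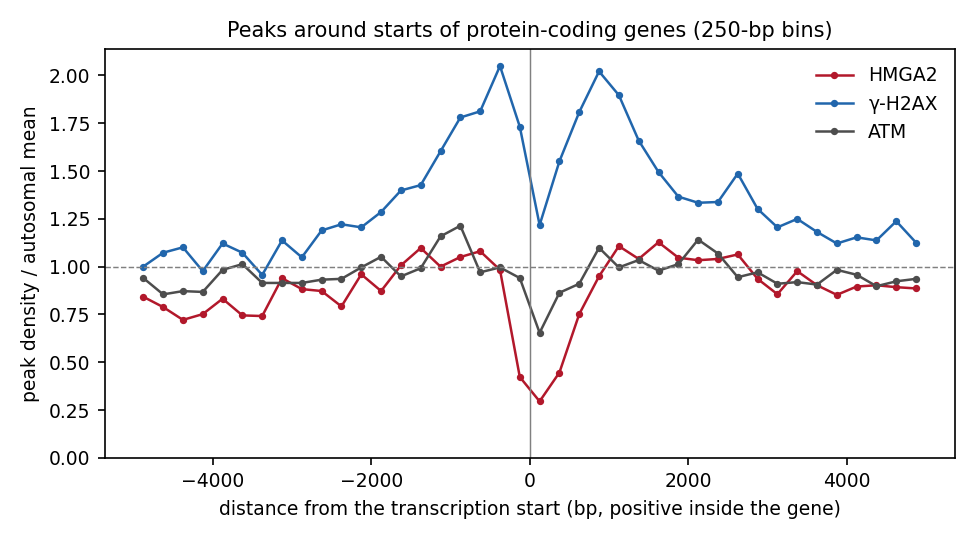
Density of peak midpoints in 250-bp bins (vertical axis, relative to the autosomal mean of each list) against distance from the annotated start of protein-coding genes (horizontal axis, bp, positive inside the gene), with a line per antibody. The HMGA2 line drops to 0.295 just inside the gene, returns to about the mean within 1 kb on either side and lies mostly below it farther out.

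Placing each peak by its midpoint gave 7378 peaks (5.17%, 95% interval 5.05 to 5.28) within 1 kb of an annotated gene end, 65154 (45.6%, 45.4 to 45.9) in gene bodies farther than 1 kb from any end, and 70286 (49.2%, 49.0 to 49.5) between genes. The mean over all circular rotations of the list within each chromosome was 6.27%, 45.3% and 48.4% in the same order. Gene ends thus carried 0.824 times the rotation mean, gene bodies 1.006 times and intergenic sequence 1.017 times. The share at gene ends lay below rotation on 19 of 19 autosomes, from 0.676 on chromosome 14 to 0.980 on chromosome 18. Body and intergenic shares had no common direction, with 10 of 19 autosomes above rotation for each.

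A second reference kept the region of each peak, by moving the list 50 to 100 kb to either side in 12 fixed steps. Against it, gene ends stood at 0.944 (0.924 to 0.966), below 1 on 14 of 19 autosomes. Gene bodies stood at 1.055 (1.049 to 1.061), above 1 on 19 of 19 autosomes, and intergenic sequence at 0.960 (0.955 to 0.965), below 1 on 19 of 19. Relative to positions 50 to 100 kb away the HMGA2 list thus had a larger gene body share, where rotation gave a ratio near 1.

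The raw shares differed from those of the other lists in 5 of 6 comparisons by Fisher's exact test (two-sided, p adjusted over 6 tests). At gene ends the HMGA2 share of 5.17% compared with 7.36% for γ-H2AX (odds ratio 0.686, 95% interval 0.664 to 0.708, adjusted exact p = 1.86e-118) and 5.93% for ATM (0.864, 0.835 to 0.893, exact p = 5.7e-17). Between genes, 49.2% compared with 42.4% for γ-H2AX (1.318, 1.298 to 1.339, exact p = 2.53e-268) and 48.1% for ATM (1.045, 1.029 to 1.061, exact p = 4.55e-08). In gene bodies 45.6% compared with 50.3% for γ-H2AX (0.830, 0.817 to 0.843, exact p = 2.15e-124). Against the 45.9% of ATM the odds ratio was 0.987 (0.971 to 1.002, exact p = 0.0982), which did not pass. These tests treat neighbouring peaks as independent and leave regional density in. Against local shifts the ratio of ATM at gene ends was 0.947, and HMGA2 was lower than ATM on 9 of 19 autosomes. In gene bodies the local ratio was 1.033 for γ-H2AX and 1.006 for ATM, and HMGA2 was higher than ATM on 19 of 19 autosomes and higher than γ-H2AX on 18.

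**Figure D3:**
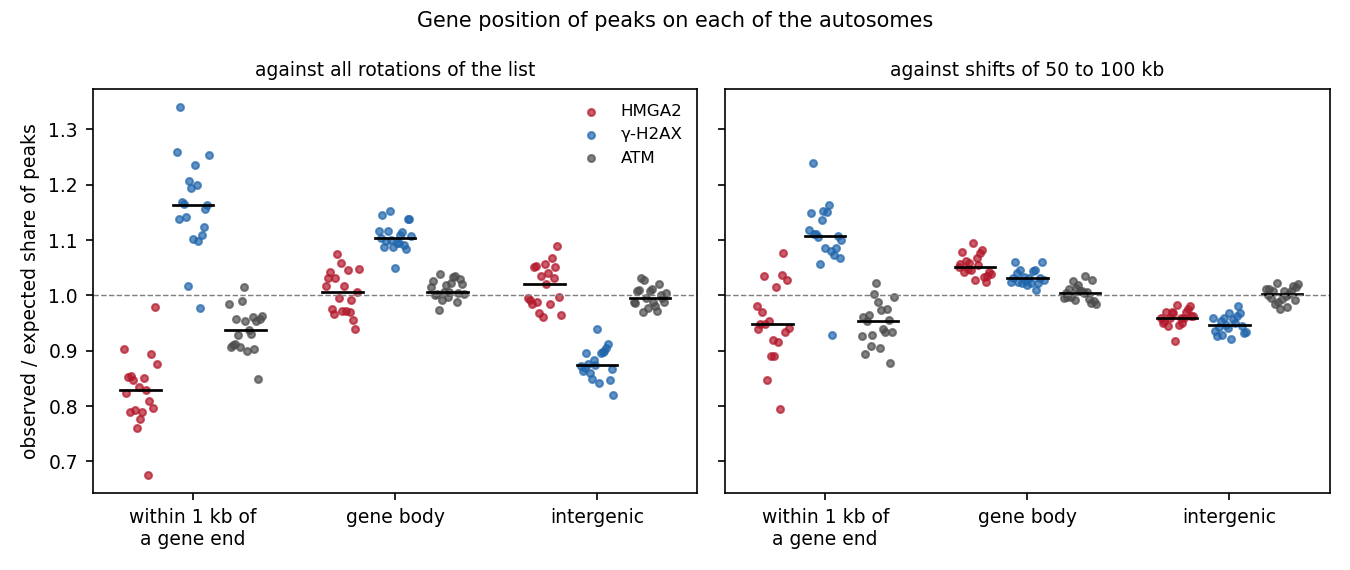
Observed over expected share of peaks (vertical axis) at gene ends, in gene bodies and between genes, with 1 point per autosome and antibody and a bar at the median, against rotations of the list (left) and shifts of 50 to 100 kb (right). HMGA2 lies below 1 at gene ends on 19 of 19 autosomes on the left, and above 1 in gene bodies on 19 of 19 on the right.

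Gene position hardly changed with the score of the peak. The share at gene ends was 5.11% (4.91 to 5.32) for scores from 20 to 22, 5.18% from 22 to 25, 5.19% from 25 to 30, 5.21% from 30 to 40 and 4.96% (4.17 to 5.89) from 40 to 50. In the 759 peaks of 50 or more it was 6.46% (4.92 to 8.43), an interval that holds the values of the other bands. The ratio to rotation was 1.03 in that band and 0.799 to 0.834 in the others. Intergenic shares of the bands ranged from 48.1% to 49.5%.

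Regional density varied more for HMGA2 than for the other antibodies. Over 2374 windows of 1 Mb the number of HMGA2 peaks ranged from 3 to 156 with a median of 58, and the 5th and 95th percentiles were 22 and 103. γ-H2AX ranged from 1 to 115 (median 48) and ATM from 4 to 141 (median 47). Variance divided by mean was 9.91 in the HMGA2 list, 6.34 in that of γ-H2AX and 2.68 in that of ATM. The spread beyond counting error was 38.7%, 32.8% and 19.0% of the mean. Whole chromosomes differed as well, from 45.4 HMGA2 peaks per Mb on chromosome 7 to 71.0 on chromosome 3. Chromosomes 7 and 11, with 14.3 and 13.5 protein-coding genes per Mb, had the 2 lowest densities (45.4 and 50.3). Over the 19 autosomes HMGA2 density and gene density had a Pearson's r of -0.83 (Spearman's rho -0.71). The chromosomes share 1 library, and the coefficients are descriptions.

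HMGA2 peaks were densest where protein-coding genes were few. The mean was 78.6 peaks in the 268 windows with no such gene and fell through 70.2 (1 to 2 genes), 62.0 (3 to 5), 55.2 (6 to 10) and 46.9 (11 to 20) to 42.8 in the 238 windows with 21 or more. For γ-H2AX the order ran the other way at the gene-poor end, from 38.5 at a count of 0 to 54.1 with 6 to 10, and ended at 49.1. ATM stayed between 42.9 and 48.8. For each γ-H2AX peak there were 2.04 HMGA2 peaks in windows with a count of 0 and 0.871 in the most gene-dense. The 752 windows with 0 to 2 genes, 31.7% of the windows, held 39.0% of HMGA2 peaks, 27.9% of γ-H2AX peaks and 31.4% of ATM peaks. By Fisher's exact test the odds of lying there were 1.65 times higher for HMGA2 than for γ-H2AX (95% interval 1.62 to 1.68) and 1.39 times higher than for ATM (1.37 to 1.42), with p too small for the software to represent. In windows with over 20 genes the odds were 0.706 times those of γ-H2AX (adjusted exact p = 2.08e-133) and 0.763 times those of ATM (exact p = 3.41e-76).

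Across windows, HMGA2 density had a Spearman's rho of -0.47 with the number of genes, γ-H2AX density 0.20 and ATM density -0.08. In the 1666 windows with at least 5 promoters, rho with their mean A+T share was 0.31 (HMGA2), -0.14 (γ-H2AX) and 0.17 (ATM). With the other lists HMGA2 had a rho of 0.50 (ATM) and 0.30 (γ-H2AX). Windows are no replicates, and they share libraries, mappability and base composition. The A+T share of promoters therefore moved with HMGA2 density across the 1666 windows. Windows with fewer than 5 promoters were left out, and base composition of whole windows was not measured. Its part in the gene-poor excess was not tested.

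**Figure D4:**
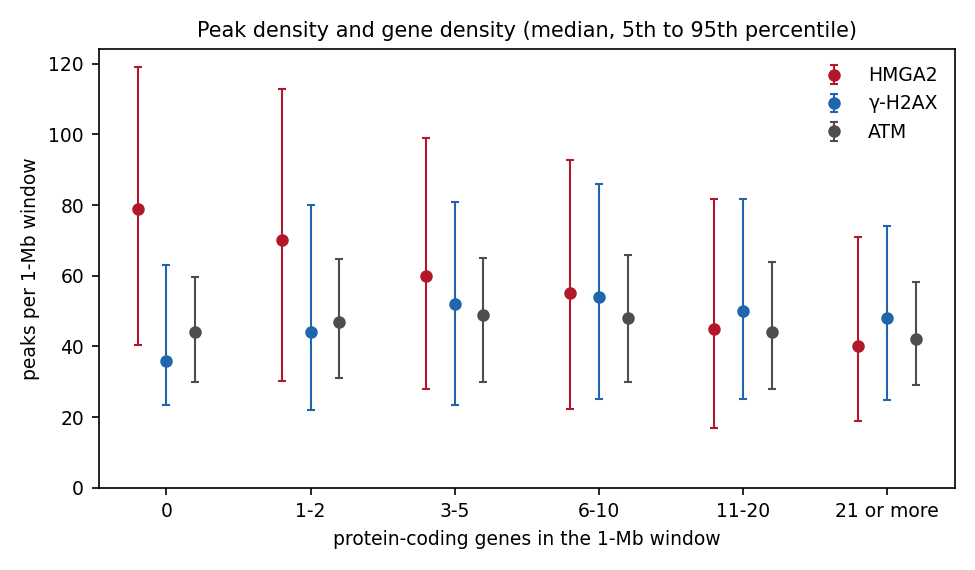
Peaks per 1-Mb window (vertical axis) in classes of windows by their number of protein-coding genes (horizontal axis), each gene counted at its midpoint. The median is a point and the 5th to 95th percentile a bar for each antibody. HMGA2 falls from a median of 79 in gene-free windows to 40 in the most gene-dense, and ATM stays between 42 and 49.

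The windows at the ends of the range had different gene content. The densest was chromosome 1 at 45000001 to 46000000, with 156 HMGA2, 88 γ-H2AX and 87 ATM peaks. It holds the fibrillar collagen genes Col5a2 and Col3a1, both typical of fibroblasts, with Wdr75 and the iron exporter gene Slc40a1. Next came chromosome 17 at 61000001 to 62000000 (154 peaks) and chromosome 5 at 80000001 to 81000000 (143), neither of which touches a protein-coding gene. The window of Sema3a, a secreted semaphorin (chromosome 5, 13000001 to 14000000), followed, and that of Olfm3 and Col11a1 (chromosome 3, 114000001 to 115000000) had 137. The sparsest window, with 3 HMGA2, 12 γ-H2AX and 22 ATM peaks, was chromosome 4 at 140000001 to 141000000, which holds Igsf21, Arhgef10l and the peptidylarginine deiminase genes Padi1 and Padi2. It was followed by the window of Ajap1 on chromosome 4 (5 peaks) and by that of Rbm19, Rph3a and Tpcn1 on chromosome 5 (6 peaks). The other two, on chromosome 2 (6 peaks, with Gm14296 and Gm14308) and chromosome 12 (8 peaks, with Gm40847), hold predicted genes, and their values are uncertain where such genes are near-identical copies.

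HMGA2 peaks lay closer together than even placement would give. The median distance between neighbouring midpoints was 9737 bp, against 11660 bp for evenly random positions at the same mean. Of 142799 neighbouring pairs, 11369 (7.96%, 7.82 to 8.10) were within 1 kb, where the density of each chromosome gives 5.83%, a ratio of 1.366 (1.342 to 1.390). The ratio was 1.236 (1.209 to 1.264) for γ-H2AX and 0.966 (0.940 to 0.993) for ATM. Within 5 kb it was 1.213 (HMGA2), 1.204 (γ-H2AX) and 1.046 (ATM), and within 10 kb 1.129, 1.132 and 1.037. Midpoints closer than a peak's width are merged by the caller (the smallest distance was 131 bp), which lowers the count at the shortest distances in every list. With the density of each 1-Mb window as the reference, the HMGA2 ratio within 1 kb was 1.128 (1.098 to 1.159) in windows with 0 to 2 genes, 1.225 (1.195 to 1.256) with 3 to 20 and 1.435 (1.336 to 1.542) with over 20. Close pairs were thus least frequent per pair in gene-dense windows (6.87% against 8.77%) but farthest above the density found there.

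**Figure D5:**
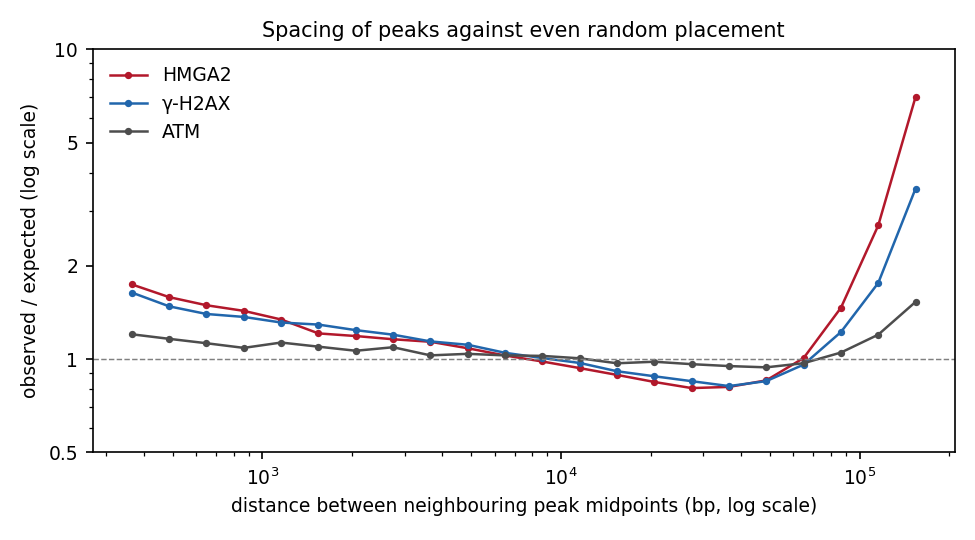
Observed over expected number of neighbouring peaks (vertical axis, log scale) against the distance between their midpoints (horizontal axis, bp, log scale), with a line per antibody and bins with at least 50 observed and 50 expected pairs. HMGA2 and γ-H2AX lie above 1 at short distances and again at the longest distances drawn, and ATM stays nearer to 1.

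Among 20665 autosomal protein-coding genes, 10270 had at least 1 HMGA2 peak midpoint between their annotated ends (percent called 49.7%), 6822 at least 2 (33%), 3240 at least 5 (15.7%), 1533 at least 10 (7.42%), 567 at least 20 (2.74%) and 117 at least 50 (0.566%). Gene lengths and the density of each chromosome would give 12257 genes with at least 1 peak, 8089 with 2, 1378 with 10 and 89.1 with 50. HMGA2 peaks were thus in fewer genes than gene length gives, at a ratio of 0.838, while genes with many peaks were more frequent, at 1.113 for 10 or more and 1.313 for 50 or more. For γ-H2AX the ratios were 0.995, 1.337 and 0.898 in the same order, and for ATM 0.954, 1.100 and 1.041. The 100 genes with most HMGA2 peaks held 14.2% of all peak counts in genes.

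Density also differed between classes of gene length. HMGA2 density was 0.615 times the autosomal mean in the 7342 genes under 10 kb, 0.837 in genes of 10 to 50 kb, 1.057 from 50 to 200 kb, 1.034 from 200 to 500 kb and 1.112 in the 216 genes of 500 kb or more. γ-H2AX had 1.125, 1.147, 1.243, 1.138 and 0.908 in the same classes. In ATM the range was from 0.868 to 1.042. More HMGA2 than γ-H2AX peaks were found in 165 of the 216 longest genes, although the HMGA2 list is also longer. HMGA2 density was also followed along 3677 genes of 50 kb or more, drawn from start to end. Only genes with an entry in the RefSeq promoter table were used, and the others were left out. The density was 1.12 times the mean in the first of 10 equal parts (1.09 to 1.16) and 1.13 in the second. It was 1.10 in the sixth and 0.925 in the last (0.893 to 0.957). Upstream flanks of 50 kb lay at 0.899 to 0.965, and downstream flanks at 0.797 to 0.855. The HMGA2 density therefore declined along these genes and dropped at their end. γ-H2AX density also declined, from 1.31 in the first part to 1.02 in the last, and ATM went from 1.05 to 0.977.

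The 10 genes with most peaks were all very long, the shortest being Cadm2 with 966 kb. Ptprd, a receptor tyrosine phosphatase (chromosome 4, 75941237 to 78211742), held 212 HMGA2 peaks where its length gives 136, with 96 γ-H2AX and 114 ATM peaks. Macrod2, an ADP-ribosyl hydrolase, held 173 (120 by length), Lrp1b, an LDL receptor relative, 158 (123), and Dlg2, a synaptic scaffold, 148 (89.7). Csmd3 held 145 (75.8), the Slit receptor gene Robo2 140 (104), the adhesion gene Cadm2 129 (64.8) and Lrrc4c, a ligand of netrin-G, 122 (78.7). Lsamp with 149 (148) and Cntnap2 with 138 (132) were at what their length gives. Within Ptprd the scores had a median of 23.8, 27 peaks reached 30, and the highest was 63.6 at 77393767 to 77394192.

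Peaks per length gave other genes. Among the 2313 genes of 100 kb or more, whose median was 5.82 peaks per 100 kb, Phip (chromosome 9, 82866159 to 82981668) led with 28 peaks in 116 kb, 24.2 per 100 kb and 4.51 times the number its length gives. Cop1, a ubiquitin ligase, had 23.6 per 100 kb, Dlg1, a polarity scaffold, 21.4, and Ankrd28 20.5. Col5a2, a chain of type V collagen that regulates collagen fibril diameter (chromosome 1, 45374331 to 45503282), had 26 peaks or 20.2 per 100 kb, 9 of them with a score of 30 or more and the highest at 58.5, with 13 γ-H2AX and 11 ATM peaks. Eea1, a tether of early endosomes (20.03), Dmxl1 (19.6), the AMPA receptor gene Gria2 (19.5), Rock1 (19.5) and Fchsd2 (19.3) followed. In each of the 10, HMGA2 peaks outnumbered those of both other lists. The genes were picked by their HMGA2 peaks and the HMGA2 list is the longest, so this excess follows largely from the choice.

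Of the 945 genes of 200 kb or more, 8 had no HMGA2 peak. By alphabet the first were Dscaml1, a neuronal adhesion molecule in 326 kb (17.5 peaks by length, 7 γ-H2AX and 9 ATM peaks found), Efcab6 (13.02, with 0 and 3), Gm4724 (17.1, with 0 and 0), the kainate receptor gene Grik3 (13.4, with 2 and 2) and Igsf21 (13.2, with 2 and 3). Gm4724 lies in an array of near-identical zinc-finger genes and is uncertain.

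Gene lists were described by counts, and their members were chosen with earlier results of these data known. Over all protein-coding genes the ratio of peaks to the number given by length was 1.007, the median number per 100 kb was 0, and 49.7% of genes had a peak. All 34 matched long adhesion and synapse genes had HMGA2 peaks, as their length gives, with 3206 peaks in all against 2686 by length (1.19). Of the 34, 23 lay above the number for their length. The list includes all 10 genes with most HMGA2 peaks, so these values follow in part from the choice of members. Of all 216 genes of 500 kb or more, 100% had a peak and 119 lay above that number, with a median ratio of 1.05, against 1.17 over the 34. Their median was 6.81 per 100 kb, against 5.95 for genes of 200 kb or more. The same genes had 0.780 times the number by length for γ-H2AX and 0.990 for ATM. Low members were Ntm (14 against 52.03), Rbfox1 (43 against 102.6) and Ptprt (33 against 68.2).

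Fibroblast and extracellular matrix genes had HMGA2 peaks in 16 of 24 members, where gene length gives 17.9. They held 112 peaks against 69.2 by length (1.62), with a median of 7.10 per 100 kb. Of the 24, 14 lay above the number for their length. Col5a2 (26 peaks, 8.15 by length) and Col3a1 (8 against 2.41) share the densest window, so the ratio leans in part on that region. Among the others were Fbn1, the microfibril protein fibrillin-1 (17 against 12.3), and Tnc, the matrix protein tenascin C (12 against 5.22). Postn, which encodes periostin, had 8 against 2.255, and Fn1, which encodes fibronectin, 8 against 4.29. Col1a1, Col6a1, Col6a2, Mmp2 and Acta2 were among the 8 without a peak. The ratio was higher for γ-H2AX (1.93) and lower for ATM (1.299). DNA damage response genes had peaks in 19 of 25 members (20.7 by length), 132 against 95.6 (1.38), with a median of 6.85 per 100 kb. Xrcc4, the partner of DNA ligase IV, led with 39 against 15.3, followed by the helicase gene Wrn (19 against 8.50), the kinase genes Atr (14 against 5.14) and Atm (11 against 5.36), and Prkdc, the DNA-dependent protein kinase, was lower (9 against 13.8). Brca1, Parp1, Mre11a, Rnf8 and H2ax were among those with none.

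TGF-beta genes had peaks in 17 of 25 members (18.6 by length) at a ratio of 1.203, with Ltbp1, a latency-binding protein (27 peaks), and the BMP receptor genes Bmpr2 (21 against 7.20) and Bmpr1a (15 against 5.72). Cell cycle genes had 12 of 25 (13.9 by length, 1.14), led by Cdk6 (13), Rb1 (11) and Ccne2 (4 against 0.858). Among housekeeping genes it was 9 of 18 (7.08 by length, 1.48), with 4 peaks in Sdha, a subunit of succinate dehydrogenase, and 3 each in Polr2a and Tfrc. In the family of HMG proteins, 6 of 11 genes had peaks (6.30 by length, 1.35). Hmga2 itself (chromosome 10, 120361268 to 120476469) had 14 HMGA2 peaks against 7.67 by length, beside 15 γ-H2AX and 7 ATM peaks, and its highest score was 44.4 at 120446519 to 120446935. Hmgxb3 had 2, and Hmga1, Hmgb2 and Hmgn1 had none.

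The epithelial, endothelial, blood cell and keratin lists had ratios below 1. The ratios do not allow for the class of gene length. Density was 0.615 times the autosomal mean in genes under 10 kb and 1.057 times it from 50 to 200 kb. Median lengths were 5.84 kb (epithelial), 46.2 kb (endothelial), 21.1 kb (blood cell) and 1.77 kb (keratin). Housekeeping genes, with a median of 5.13 kb, stood at 1.48, with 17 peaks against 11.5 by length. A median does not show which members the numbers by length come from. A part of cell type or gene length in these ratios was not tested. Epithelial genes had HMGA2 peaks in 5 of 15 members (6.82 by length), 8 peaks against 22.4 by length (0.357). There were 2 each in Cdh1 (E-cadherin, 66.9 kb), Esrp1 (54.9 kb) and Grhl2 (131 kb), against 3.76, 3.28 and 8.17 by length. Endothelial genes had 9 of 13 (10.2 by length, 0.689), with 15 in Emcn (6.39 by length) and 6 each in Erg (15.3) and Flt1 (9.41). Blood cell genes had 7 of 15 (8.94 by length, 0.948), with 15 in Ptprc (CD45, 7.14 by length), 6 in Adgre1 (6.70) and 3 in Itgam (2.54). Keratin genes had 7 of 112 (21.7 by length, 0.276), with 2 in Krt222 and 1 each in Krt10 and Krt25. The corresponding ratios of γ-H2AX were 0.856, 0.952, 0.828 and 0.632. Vomeronasal receptor genes, in tandem arrays, had 119 of 354 (101.5 by length, 1.28), led by Vmn2r1 (14), Vmn2r60 (7) and Vmn2r91 (6). Olfactory receptor genes had 75 of 1104 (95.8 by length, 0.862), with 4 each in Olfr1033, Olfr1280 and Olfr183. The olfactory ratio was 1.18 when 5 kb on either side were added. Both receptor families hold near-identical copies, so counts of single members are uncertain.

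At gene ends, 3745 of 20665 protein-coding genes were touched by an HMGA2 peak within 1 kb of an end (18.1%), and different peaks lay at both ends of 213 of 18374 genes over 2 kb (1.16%). By the lower of the 2 scores the first was Tor1aip1, which encodes the nuclear membrane protein LAP1 (chromosome 1, 156004599 to 156036480, scores of 40.8 and 38.4). Zc3h6 (38.1 and 37.6), the epidermal gene Sprr2a2 (36.3 and 35.4), Rfesd (36.5 and 34.2) and Sgpp1, a sphingosine-1-phosphate phosphatase (50.4 and 31.8), followed. Sprr2a2 belongs to a family of similar genes and is uncertain.

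Of the 10 highest-scoring autosomal peaks, 2 lay within a gene. One, in Pbx4 on chromosome 8, scored 226 and touched an ATM peak of 52.2. The other, of 452 bp in Ezh2, the methyltransferase of Polycomb repressive complex 2 (chromosome 6, 47593119 to 47593570), had a score of 131 and no γ-H2AX or ATM peak. A peak 6.59 kb from the potassium channel gene Kcnj4 (chromosome 15, 79473321 to 79473633) scored 234, and one 24.7 kb from Lmnb1, the lamin B1 gene (chromosome 18, 56682817 to 56683100), scored 221. A peak 1.24 kb from Sprr2a2 (chromosome 3, 92258544 to 92259584) scored 134, and none of these touched a peak of the other lists. Of the others, those on chromosomes 4, 10 and 2 and the highest, on chromosome 14, touched peaks of 1 or both other lists. The ATM score was 240 on chromosome 10 (72297066 to 72297349). The highest (19415574 to 19419721, 4148 bp) scored 641 and touched the highest autosomal peaks of γ-H2AX (670) and ATM (494). On chromosome 2 (98662115 to 98663000) HMGA2 scored 164, γ-H2AX 204 and ATM 214. High scores at these 2 sites are thus not particular to HMGA2. One on chromosome 14 (95614458 to 95614750, score 219), 193 kb from the nearest annotated gene, touched none.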

How the data were processed

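ChIP-seq of HMGA2, γ-H2AX and ATM in wild-type MEF was used as deposited. The authors made each peak list with MACS14, run with no model, a shift size of 30 bp and a p threshold of 0.01, per the labels; per the submitters' processing notes, reads passed through Trimmomatic, Bowtie2, SAMtools and HOMER (no versions given) on mm10. The control of the calls is not given in the sources used here. The deposited score of each peak is -10 times the log10 of p, judged from its lowest value of 20 and the stated threshold. Total read counts were not given, so depth and the precision it sets are unknown.

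Peak midpoints on the autosomes were placed on 47042 RefSeq genes (GRCm38.p6) in 3 exclusive classes with Python 3.11.15, numpy 2.4.6 and scipy 1.17.1. The rotation mean was computed exactly, as the class share of the span between the first and last peak of any list on each chromosome. Promoters of chromosome 18 were not analysed here. Touching means an overlap of at least 1 bp. Expected numbers of close pairs and of peaks per gene are Poisson values at the density of the chromosome. No p was computed against rotations or shifts. Fisher's exact tests compare lists. Wilson intervals (95%) and odds ratio intervals cover counting error only. Procedures were tested on simulated positions. Members and gene lists were chosen with earlier results of these data known. Named genes were the 10 with most peaks, the 10 with most per 100 kb from 100 kb, the 5 with fewest from 200 kb, those at the 10 highest peaks, in the 5 densest and 5 sparsest windows (at most 4 a window), the 3 first of each list and the 5 first with peaks at both ends; further list members, the printed promoters, the transcription start profile, promoter tests and window tests were chosen after the data were examined. Some genes that this rule names are not reported here. Of the list members sought, 7 were unmatched among autosomal protein-coding genes. Region lists of other antibodies' promoters, a mean profile over all HMGA2 peaks and plotting configurations were not used.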

Additional observations from a re-analysis of the deposited data

How the results depend on the processing

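No paired analysis was possible because there was 1 library per antibody and genotype and the labels give no replicate numbers; for the same reason no replicate could be left out. For the share at gene ends the ratio was 0.849 in the 10000 highest-scoring peaks, 0.944 against local shifts, 0.786 with 500 bp at either end and 0.866 with 5 kb. The gene body ratio was 1.020 with protein-coding genes only, 1.029 with rotation from position 1 and 1.055 against local shifts. The intergenic ratio turned below 1 under the same 3 settings, at 0.995, 0.994 and 0.960, so its direction against rotation is not stable. The spacing ratio within 1 kb was 2.02 among peaks scoring at least 30, and 1.195 at the density of each 1-Mb window. Variance over mean of the window counts was 6.10 with 500-kb windows, 16.3 with 2-Mb windows and 2.86 for scores of 30 or more, where counts are smaller and the relative SD beyond counting was 52.1%. With scores of 30 or more, 1365 genes had at least 2 peaks. At the density of the 1-Mb windows, the ratio to the expected number of genes was 0.979 for 2 or more peaks and 1.190 for 10 or more. Density in genes of 500 kb or more against those under 10 kb was 1.81-fold, and 1.65-fold with all genes. The A+T excess of touched promoters (8.51 points over all promoters) was 7.24 points for the 38 touched by scores of 30 or more and 9.43 points for the 265 holding a midpoint, both alternatives chosen after seeing the data. The olfactory receptor ratio turned from 0.862 to 1.177 with 5 kb on either side. The number of gene lists above 1 was 8 of 13, and 9 with 5 kb added. Without total read counts or input, the depth is unknown, and its effect on which peaks passed the threshold was not tested.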

Other observations

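The longest autosomal distance between neighbouring HMGA2 midpoints was 699 kb, on chromosome 4 (139934493 to 140633668), where 6 γ-H2AX and 12 ATM peaks were found. A second on chromosome 4 (153093040 to 153729707) held 7 γ-H2AX and 9 ATM peaks, and one on chromosome 15 (83602900 to 84187781), which contains Efcab6, held 4 and 11. The stretch on chromosome 2 (175170749 to 175812436) had 0 γ-H2AX and 2 ATM peaks and lies in an array of similar zinc-finger genes. Distances over 100 kb made up 1.18% of HMGA2 pairs, 1.67% of γ-H2AX pairs and 1.25% of ATM pairs.

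By kind of gene, HMGA2 density was 1.002 times the autosomal mean in protein-coding genes, 0.904 in 12408 long non-coding RNA genes and 0.731 in 8884 pseudogenes. γ-H2AX had 1.135, 1.059 and 0.728, and ATM 1.005, 0.9995 and 0.932. Annotated pseudogenes are often close copies of other genes, and their values are uncertain.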
